A study of Canis lupus familiaris with 40 samples.

Results

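ENSCAFG00000017646 and ENSCAFG00000029470 are dog genes whose transcripts took a large part of the reads of blood neutrophil libraries. Both were chosen by their measured level in these same data, taken to be the level in the neutrophil libraries. They are 2 of the 24580 gene IDs in the count table. Their level in neutrophils is therefore given as a description, without a test, as is any comparison with neutrophil libraries that rests on that level. The tables pair no symbol with either ID, and a search for symbols found 0 for the 24580 IDs, so what the encoded proteins do is not stated.

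RNA was sequenced from flow-sorted blood leukocytes of dogs, as 40 libraries of 6 populations. Neutrophils (PMNs) came from the dense cell pellet under a density gradient, of healthy dogs (H PMN, 5 libraries) and of tumor-bearing dogs (C PMN, 10 libraries), and were sorted as CD11b+ CADO48A+ cells without CD5, CD21 or MHCII. Polymorphonuclear and monocytic myeloid-derived suppressor cells, PMN-MDSCs (9 libraries) and M-MDSCs (5 libraries), came from the light mononuclear layer of tumor-bearing dogs and also lacked CD5, CD21 and MHCII, the former being CD11b+ CD14− CADO48A+ and the latter CD11b+ CD14+ CADO48A−. Monocytes came from the same layer of tumor-bearing dogs (C MONO, 8 libraries) and healthy dogs (H MONO, 3 libraries), and were sorted as MHCII+ CD11b+ CD14+ cells without CD5 or CD21. The labels name no genotype, treatment, age or dog for a library. The authors write of PMN-MDSCs and PMNs of the same patient, so dogs were shared between populations, but which libraries share a dog is not labelled. No test here allows for this, and p-values measure the spread between these libraries.

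Neutrophils are short-lived granulocytes that leave the bone marrow with much of their protein already stored in granules, and monocytes are circulating phagocytes that can become macrophages or dendritic cells in tissue. MDSCs are myeloid cells that accumulate in cancer, can restrain T cells and are defined by function together with surface markers, since they share most markers with neutrophils or monocytes. In blood the polymorphonuclear kind is set apart from ordinary neutrophils mainly by its low density. The authors tested restraint of T cells for the PMN-MDSCs only, and call their M-MDSCs putative.

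Depth ran from 4229857 to 60473238 counts on genes. Only C PMN 7 (4229857 counts) and PMN-MDSC 9 (6299310 counts) were under 10000000, with 3470 and 3959 genes of at least 10 counts, and the 10 most abundant genes took 63.9% and 58.7% of their counts. The description of the series counts 9 C PMN and 8 PMN-MDSC libraries, 1 fewer in each group than the labels, and does not say which is meant. All labelled libraries were used here, C PMN 7 and PMN-MDSC 9 among them. In the other C PMN libraries the 10 most abundant genes took 13.6% to 22.7%. Apart from depth, PMN-MDSC 3 and PMN-MDSC 8 lay apart from their group. Their profiles correlated with the mean C PMN profile at r = 0.969 and 0.957 and with the mean of the other PMN-MDSC libraries at r = 0.867 and 0.870, over genes other than the pair. Fold changes fitted with TMM and mean shares that the low-depth libraries enter are given with and without them. The exception is the fit of all 40 libraries, which was made only with them. PMN-MDSC 3 and 8 stay in the fold changes and mean shares and are named where they differ. The lowest count behind any value of the pair was 3147, in C MONO 7, where the share of counts was 0.0115% (95% Clopper-Pearson interval 0.0111% to 0.0119%), and every other interval was narrower relative to its value, so counting error was small beside the spread between libraries.

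ENSCAFG00000017646 took 2.72%, 2.04%, 2.43%, 2.32% and 2.02% of the counts in H PMN 1 to 5. In the 10 C PMN libraries the lowest share was 1.70%, the median 2.04% and the highest 4.06%. The groups overlapped. Among C PMNs the highest value was that of C PMN 5 and the next 2.44%, in C PMN 6. By counts the gene held rank 1 in 3 of 5 H PMN and 3 of 10 C PMN libraries and a rank of at most 5 in 14 of the 15, the exception being C PMN 7 with rank 12. The mean share was 2.30% ± 0.291 (SD, n = 5) in H PMNs and 2.21% ± 0.686 (SD, n = 10) in C PMNs, or 2.27% ± 0.705 (SD, n = 9) without the low-depth library.

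ENSCAFG00000029470 took 2.26%, 2.49%, 1.85%, 2.59% and 1.61% of the counts in H PMN 1 to 5. In C PMNs the lowest share was 1.53%, the median 2.87% and the highest 10.6%. The highest was the low-depth C PMN 7, followed by C PMN 1 with 5.60%, and the groups overlapped. The gene held a rank of at most 5 in all 15 libraries and rank 1 in 2 of 5 H PMN and 5 of 10 C PMN libraries. Its mean was 2.16% ± 0.420 (SD, n = 5) in H PMNs and 3.63% ± 2.70 (SD, n = 10) in C PMNs, or 2.86% ± 1.20 (SD, n = 9) without C PMN 7.

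One or the other of the pair ranked highest in 13 of the 15 PMN libraries. The exceptions were C PMN 7, led by ENSCAFG00000022711 with 18.6% against a median of 0.393% for that gene in C PMNs, and C PMN 8, led by ENSCAFG00000016020 with 2.36%. Together the pair took 4.47% ± 0.548 of the counts in H PMNs (SD, n = 5) and 5.85% ± 2.61 in C PMNs (SD, n = 10), or 5.12% ± 1.34 without C PMN 7 (SD, n = 9). Ordered by mean share over the 15 PMN libraries, ENSCAFG00000029470 stood at place 1 with 3.14%, ENSCAFG00000023324 at place 2 with 2.28%, ENSCAFG00000017646 at place 3 with 2.24% and ENSCAFG00000016020 at place 4 with 1.85%. Over the 14 libraries of at least 10000000 counts the pair held places 1 and 2 with 2.61% and 2.28%, ahead of ENSCAFG00000016020 with 1.98% and ENSCAFG00000023324 with 1.73%. This second order was drawn up after the depths had been seen.

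**Figure D1:**
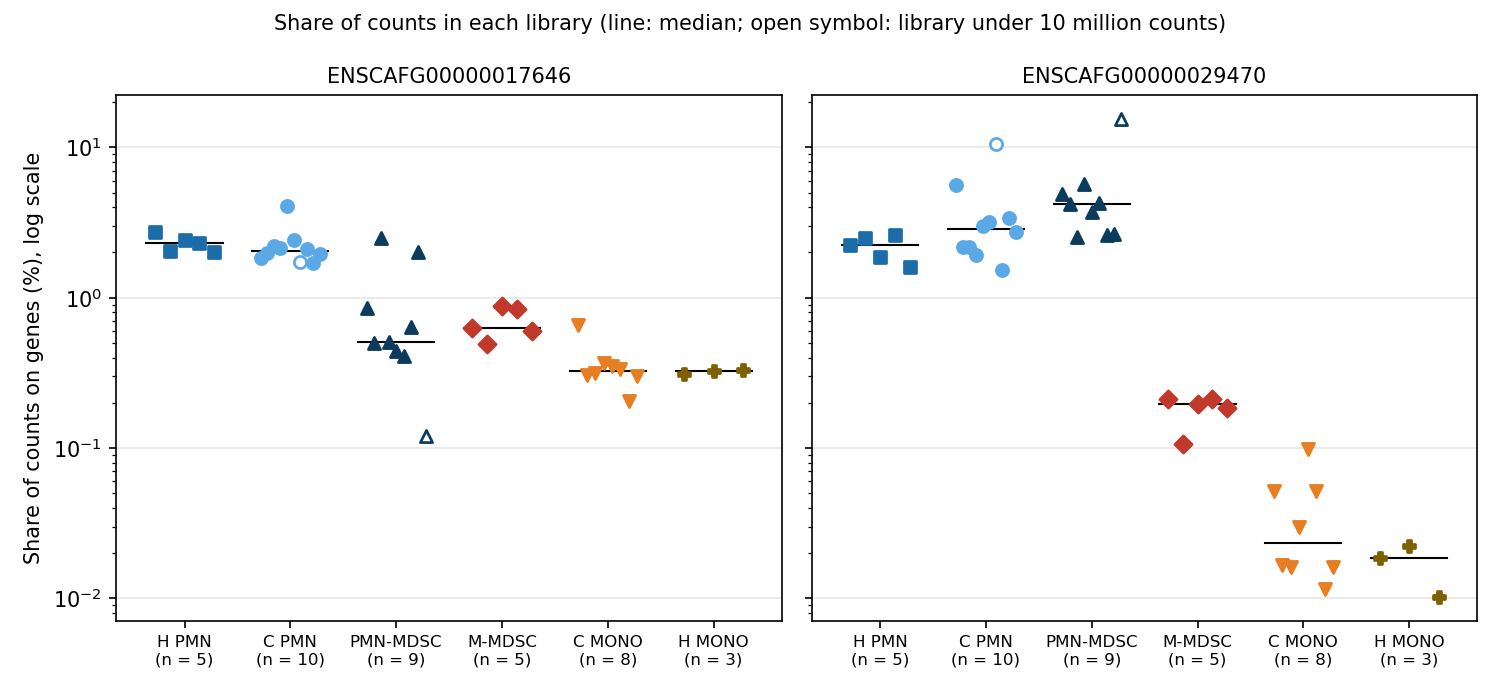
Share of counts on genes (%, log scale) of ENSCAFG00000017646 (left) and ENSCAFG00000029470 (right) in each of 40 libraries by population, with the median as a line and the 2 libraries under 10000000 counts as open symbols. PMN-MDSC 3 and 8 lie at 2.48% and 2.03% for the former gene, among the PMN libraries, while the lowest M-MDSC value of the latter (0.107%) lies just above the highest C MONO value (0.0988%).

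In PMN-MDSCs the genes parted. The lowest, median and highest shares of ENSCAFG00000017646 were 0.120%, 0.508% and 2.48%. PMN-MDSC 3 (2.48%) and PMN-MDSC 8 (2.03%) lay within the range of the PMN groups, and the other 7 libraries, between 0.120% and 0.857%, lay below all 15 PMN libraries. The ranks were 2 in each of PMN-MDSC 3 and 8, 10 to 23 in 6 libraries and 102 in the low-depth PMN-MDSC 9. For ENSCAFG00000029470 the lowest, median and highest shares were 2.52%, 4.23% and 15.5%, with ranks of 1 to 3. The highest was PMN-MDSC 9, and the next was 5.70%, in PMN-MDSC 4.

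The order of the other abundant transcripts differed in the same libraries. ENSCAFG00000013763 ranked highest in 6 of the 9 PMN-MDSC libraries, with 5.63% to 7.51% of counts, but took only 0.295% and 0.526% in PMN-MDSC 3 and 8, where ENSCAFG00000029470 ranked highest. In PMN-MDSC 9 ENSCAFG00000023324 ranked highest, with 17.7%. A list of 50 genes restricted to monocytes in healthy dogs, taken as described with the methods, summed to 6.18% to 11.3% of its H MONO level in those 6 libraries, to 0.547%, 2.18% and 3.49% in PMN-MDSC 3, 8 and 9, and to 0.248% to 1.499% in the C PMN libraries other than C PMN 7, which had 3.22%. Its level in H PMNs (0.335% to 0.711%) was held low by the way the list was chosen. Its part in the lower ENSCAFG00000017646 share was not tested.

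Set against C PMNs, the fitted log2 fold change of ENSCAFG00000017646 in PMN-MDSCs was −1.89 (SE 0.51, n = 9 and 10), and −1.47 (SE 0.39, n = 8 and 9) without the libraries under 10000000 counts. Against H PMNs it was −1.30 (SE 0.50, n = 9 and 5), or −1.26 (SE 0.46, n = 8 and 5) without PMN-MDSC 9. These fits hold PMN-MDSC 3 and 8, whose shares were those of PMNs, and were not made without them. The mean share of 0.887% in PMN-MDSCs became 0.687% without PMN-MDSC 3, 0.744% without PMN-MDSC 8 and 0.983% without the low-depth PMN-MDSC 9. For ENSCAFG00000029470 the log2 fold change was 0.59 (SE 0.91) against C PMNs and 2.85 (SE 1.13) against H PMNs, and these became 0.13 (SE 0.32) and 0.78 (SE 0.29) without the low-depth libraries. With library size in place of TMM the values were −1.32 (SE 0.46) and −1.38 (SE 0.55) for ENSCAFG00000017646 and 0.50 (SE 0.44) and 1.24 (SE 0.49) for ENSCAFG00000029470, while the median of all genes moved from −0.021 to 0.20 against C PMNs and from 0.16 to 0.023 against H PMNs. By mean share of counts, ENSCAFG00000029470 in PMN-MDSCs was 1.41-fold its C PMN level and 2.37-fold its H PMN level, or 1.34-fold and 1.77-fold without the low-depth libraries. All of these values use neutrophil levels and carry no test, and in bulk samples fewer cells of a type and less RNA per cell cannot be told apart.

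Levels of the pair were compared with each other per length, as TPM. The lengths behind the TPM values differed by 1.69-fold in all libraries, ENSCAFG00000017646 being the longer, so that near-equal shares of counts stood for more transcripts of ENSCAFG00000029470. In H PMN 1 to 5 the TPM of ENSCAFG00000029470 was 1.41, 2.07, 1.29, 1.89 and 1.35 times that of ENSCAFG00000017646. In C PMNs the lowest ratio was 1.22, the median 2.03 and the highest 10.4, in C PMN 7. In PMN-MDSCs the lowest was 1.72, the median 14.2 and the highest 219, with PMN-MDSC 3 and 8 at 1.72 and 2.20, the other 7 at 6.89 or more, and the highest in PMN-MDSC 9. The ratio was thus above 1 in all 24 libraries of the PMN lineage.

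The ratio was below 1 in all 16 monocytic libraries. In M-MDSC 1 to 5 it was 0.569, 0.366, 0.378, 0.427 and 0.519. In C MONOs the lowest was 0.0867, the median 0.114 and the highest 0.474, in C MONO 5, and in H MONO 1 to 3 it was 0.102, 0.115 and 0.0522. M-MDSCs overlapped C MONOs through C MONO 5 alone, and C MONOs overlapped H MONOs. Since ENSCAFG00000029470 was chosen for its neutrophil level, the turn between the lineages is a description. By TPM the ranks in PMN libraries were 2 to 8 for ENSCAFG00000029470 and 6 to 24 for ENSCAFG00000017646.

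**Figure D2:**
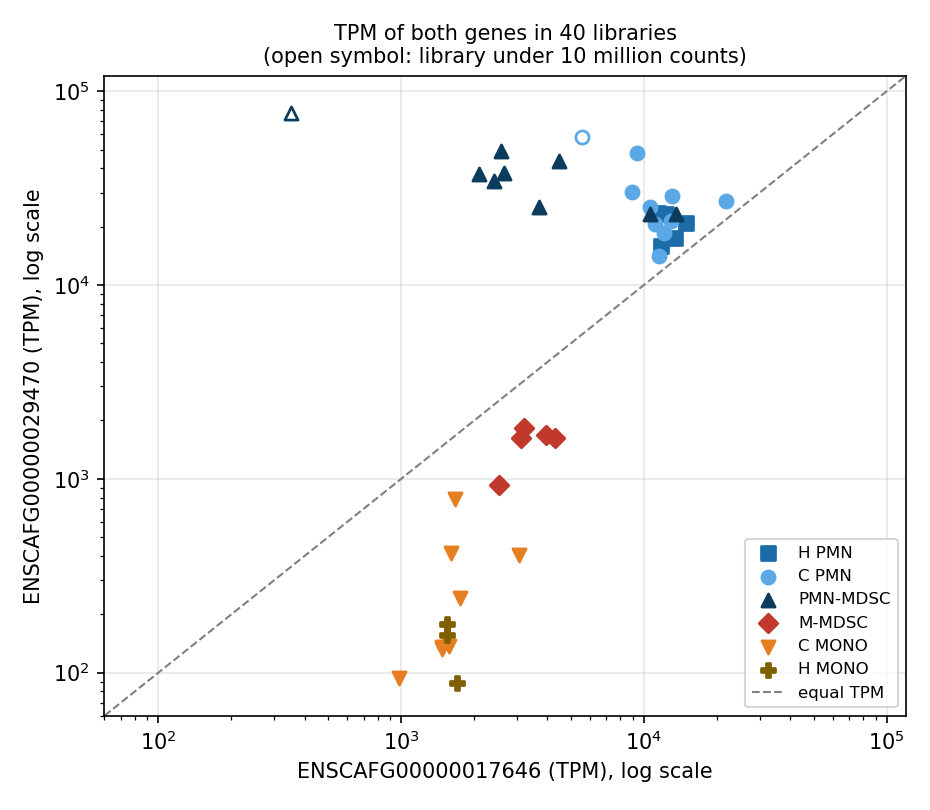
TPM of ENSCAFG00000029470 (vertical, log scale) against TPM of ENSCAFG00000017646 (horizontal, log scale) in 40 libraries, with symbols for the populations, open symbols for the 2 libraries under 10000000 counts and a dashed line at equal TPM. All 24 PMN and PMN-MDSC libraries lie above the line and all 16 M-MDSC and MONO libraries below it.

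Whether the pair varied together was asked within groups of at least 6 libraries, on log2 CPM with the total taken over all genes except the pair, so that neither gene enters the total of the other. In the 10 C PMN libraries, where the values that chose the pair are used and no test is given, Pearson's r was −0.16 and Spearman's rho −0.49. Without the 2 libraries farthest from the median of ENSCAFG00000017646, r was −0.56 and rho −0.83 (n = 8). Without the low-depth library r was −0.0055 (n = 9), and in the 6 libraries with names that begin with GAR 0.014. The sign turned with the scale, to r = 0.85 (n = 10) on log2 CPM with TMM factors, where both genes share the factor of the library. The sign of r in C PMNs thus depended on the setting.

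In PMN-MDSCs no r over all 9 libraries is given, because PMN-MDSC 3 and 8 lay apart. Over the other 7, a set chosen after seeing the data, r was −0.81 (exact permutation p = 0.136, adjusted over 3 groups with C PMNs among them 0.204) and rho −0.29 (exact permutation p = 0.556, adjusted 0.556). It rested on PMN-MDSC 9, without which r was 0.032 (exact permutation p = 0.950, n = 6). Without the 2 libraries farthest from the median, of which it is 1, r was −0.47 (exact permutation p = 0.400, n = 5). In the 8 C MONO libraries r was 0.62 (exact permutation p = 0.114, adjusted 0.204) and rho 0.81 (exact permutation p = 0.0218, adjusted 0.0653). Neither adjusted value passed. The adjustment counts the C PMN values, which carry no test, and none was made without them, so no call is given for rho. Without the 2 farthest libraries r was 0.73 (exact permutation p = 0.128, n = 6) and rho 0.66 (exact permutation p = 0.175). Library names began with GAR or PAT, and for PMN-MDSCs and C MONOs neither prefix held 6 of these libraries, so no value within a prefix is given.

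The pair was taken to be chosen from neutrophil libraries alone, which the rule that names it does not state, and the tests in monocytes and M-MDSCs rest on that. ENSCAFG00000017646 took 0.634%, 0.494%, 0.881%, 0.841% and 0.597% of the counts in M-MDSC 1 to 5. In C MONOs the lowest share was 0.205%, the median 0.326% and the highest 0.663%, and H MONO 1 to 3 had 0.311%, 0.325% and 0.333%. M-MDSCs lay above C MONOs in 37 of 40 pairs of libraries, the overlap being due to C MONO 1, which with 0.663% was above 3 M-MDSC libraries. The gene ranked 7 to 12 in M-MDSCs, 10 to 50 in C MONOs and 24 to 26 in H MONOs by counts. By TPM it ranked 30 to 55 in M-MDSCs, 44 to 173 in C MONOs and 94 to 107 in H MONOs.

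ENSCAFG00000029470 took 0.213%, 0.107%, 0.197%, 0.213% and 0.183% of the counts in M-MDSC 1 to 5. In C MONOs the lowest share was 0.0115%, the median 0.0233% and the highest 0.0988%, and H MONO 1 to 3 had 0.0187%, 0.0222% and 0.0103%. All 5 M-MDSC libraries lay above all 8 C MONO libraries, although M-MDSC 2 and C MONO 5 were close, and C MONOs overlapped H MONOs. How many of all genes separate M-MDSCs from C MONOs in this way was not counted. The gene ranked 56 to 131 in M-MDSCs, 158 to 1403 in C MONOs and 734 to 1651 in H MONOs.

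Of the pair, ENSCAFG00000029470 was called higher in M-MDSCs than in C MONOs. Its log2 fold change was 2.36 (SE 0.47, FDR 0.0328 by edgeR's quasi-likelihood test, n = 5 and 8), and its mean share was 4.99-fold higher. ENSCAFG00000017646 had a log2 fold change of 1.01 (SE 0.26, FDR 0.0870 by the same test) and was not called, with a mean share 1.94 times that of C MONOs. In this comparison 90 of 11874 genes were called, or 0.758%, against 508 by DESeq2 and 78 by limma voom. DESeq2 also called ENSCAFG00000017646 (1.03, FDR 0.0105) while limma voom did not (FDR 0.0690), and with all 40 libraries in 1 edgeR fit neither gene was called (FDR 0.596 for ENSCAFG00000017646 and 0.371 for ENSCAFG00000029470). Over the alternatives the FDR of ENSCAFG00000029470 ranged from 4.42e-05 to 0.430. Within the GAR libraries the ENSCAFG00000029470 shares were 0.107% to 0.213% in 3 M-MDSC and 0.0161% to 0.0518% in 4 C MONO libraries, and within PAT 0.183% and 0.213% against 0.0115% to 0.0988%. The fit within GAR gave a log2 fold change of 2.61 (SE 0.50, FDR 0.430 by edgeR, with 0 genes called), and no fit was made within PAT. With the prefix as a term, ENSCAFG00000029470 had a log2 fold change of 2.44 (SE 0.48, FDR 0.0365 by edgeR, with 91 genes called).

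The call changed with single libraries left out. The FDR of ENSCAFG00000029470 by edgeR passed 0.05 when M-MDSC 1 (0.0577), M-MDSC 3 (0.0759), M-MDSC 4 (0.0887), M-MDSC 5 (0.0780), C MONO 2 (0.0552), C MONO 4 (0.0628), C MONO 6 (0.0579), C MONO 7 (0.0517) or C MONO 8 (0.0597) was left out, with a log2 fold change between 2.23 and 2.76 whichever library was left out. It stayed under 0.05 without C MONO 1 (0.0432), C MONO 3 (0.0463), C MONO 5 (0.0125) or M-MDSC 2 (0.0221). ENSCAFG00000017646 was called when C MONO 1 was left out (log2 fold change 1.23, FDR 0.0143 by edgeR). An exact two-sided permutation test of mean log2 CPM was also made, 1 of 8 such tests and without adjustment. It gave p = 0.00155 for ENSCAFG00000029470 and p = 0.00622 for ENSCAFG00000017646, where the smallest share of the 1287 divisions is 0.000777. By edgeR's quasi-likelihood test, 1626 of 11874 genes had an unadjusted p under 0.05 in this comparison.

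Against H MONOs the M-MDSC values were farther apart. The log2 fold change of ENSCAFG00000029470 was 3.50 (SE 0.38, FDR 0.0116 by edgeR, n = 5 and 3) and that of ENSCAFG00000017646 was 1.19 (SE 0.28, FDR 0.156 by edgeR), in a comparison in which 28 of 11965 genes, or 0.234%, were called, against 316 by DESeq2 and 43 by limma voom. DESeq2 called ENSCAFG00000017646 too (FDR 0.00174) and limma voom did not (FDR 0.101), while with all 40 libraries in 1 edgeR fit 0 genes were called and ENSCAFG00000029470 had a log2 fold change of 3.45 (FDR 0.611). Over the alternatives the FDR of ENSCAFG00000029470 ranged from 8.45e-21 to 0.611. Both genes were higher in all 15 pairs of libraries, with mean shares 10.7 and 2.14 times those of H MONOs. How many of all genes separate these groups fully was not counted. Of the 11965 genes, 1100 had an unadjusted p under 0.05 by edgeR's quasi-likelihood test. The FDR of ENSCAFG00000029470 passed 0.05 when H MONO 1 (0.136), H MONO 2 (0.0531) or H MONO 3 (0.0726) was left out. The exact permutation p was 0.0357 for each gene, with 0.0179 the smallest share that 56 divisions allow. All H MONO libraries were of prefix GAR, and within GAR the log2 fold change of ENSCAFG00000029470 was 3.43 (SE 0.44, FDR 0.0356 by edgeR). This comparison shares its M-MDSC libraries with the one against C MONOs.

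Neither gene was called between monocytes of tumor-bearing and healthy dogs. In C MONOs against H MONOs the log2 fold change was 0.18 (SE 0.30, FDR 0.927 by edgeR, n = 8 and 3) for ENSCAFG00000017646 and 1.13 (SE 0.64, FDR 0.730) for ENSCAFG00000029470. edgeR called 0 of 12566 genes in that comparison, or 0%, with 929 genes at an unadjusted p under 0.05, while DESeq2 called 58 and limma voom 0. The sign for ENSCAFG00000017646 turned to −0.043 without C MONO 1, and the H MONO libraries served in the previous comparison too.

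Values of C PMNs against H PMNs come from the libraries by which the pair was chosen and are a description, with no test of the pair. The log2 fold change was 0.62 (SE 0.44, n = 10 and 5) for ENSCAFG00000017646 and 2.17 (SE 0.90) for ENSCAFG00000029470. Without C PMN 7 these values were 0.23 (SE 0.25) and 0.69 (SE 0.34). Over all genes edgeR called 0 of 10871, or 0%, with 1002 at an unadjusted p under 0.05, while DESeq2 called 259 and limma voom 2. With library size in place of TMM the middle of the log2 fold changes of all genes moved from a median of 0.093 to −0.27, and the values became −0.058 (SE 0.30) and 0.75 (SE 0.43), so ENSCAFG00000017646 has no direction that holds across scalings. All H PMN libraries were of prefix GAR, within which the values were 0.38 (SE 0.25) and 0.83 (SE 0.36), with 94 genes called by edgeR. C PMN libraries were above H PMN libraries in 36 of 50 pairs for ENSCAFG00000029470 and in 15 of 50 for ENSCAFG00000017646, by share of counts.

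The difference between tumor-bearing and healthy dogs was also set side by side for PMNs and MONOs in a single fit, again as a description for the pair, since it uses the same PMN values. The difference of the log2 fold changes, PMN minus MONO, was 0.31 (SE 0.57) for ENSCAFG00000017646 and 0.83 (SE 1.10) for ENSCAFG00000029470. Of 13864 genes 0 were called, or 0%, with 712 at an unadjusted p under 0.05, and no other tool was run on this contrast. For ENSCAFG00000029470 the value was −0.45 (SE 0.70) without C PMN 7, with the opposite sign, and for ENSCAFG00000017646 it was 0.023 (SE 0.42). With library size the values were −0.20 (SE 0.40) and −0.35 (SE 0.72), as the median of all genes moved from 0.040 to −0.26.

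Read as a percent of its own H PMN mean, the pair differed in how much was seen in monocytic cells. ENSCAFG00000017646 stood at 13.5%, 14.1% and 14.4% of its H PMN mean in H MONO 1 to 3, at 8.88% to 28.8% in C MONOs (median 14.1%) and at 27.5%, 21.4%, 38.2%, 36.5% and 25.9% in M-MDSC 1 to 5. ENSCAFG00000029470 stood at 0.864%, 1.03% and 0.475% in H MONO 1 to 3, at 0.534% to 4.57% in C MONOs (median 1.08%) and at 9.86%, 4.95%, 9.11%, 9.83% and 8.48% in M-MDSC 1 to 5. In fold terms, mean shares were 7.14 times higher in H PMNs than in H MONOs for the former and 127 times for the latter, and 6.22 and 99.4 times higher in C PMNs than in C MONOs (6.38 and 78.1 times without C PMN 7).

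The same scale was applied to 50 other genes restricted to PMNs in healthy dogs, summed, of which ENSCAFG00000023324 is the most abundant. The choice itself held the mean of each of these genes in H MONOs to at most 2% of its H PMN mean. C MONO and M-MDSC libraries did not enter the choice, but the H PMN level that divides their values did. C MONOs are also monocytes, as are the H MONOs in which these genes had to be low. This list stood at 0.765%, 0.899% and 0.489% of its H PMN level in H MONO 1 to 3, at 0.389% to 2.16% in C MONOs (median 0.933%) and at 4.23%, 3.57%, 5.30%, 5.73% and 6.10% in M-MDSC 1 to 5. ENSCAFG00000023324 itself stood at 0.464% to 2.81% in C MONOs and 3.89% to 9.31% in M-MDSCs. The number of its genes at 0 counts was 0 to 2 in H MONOs, 0 to 12 in C MONOs and 1 to 3 in M-MDSCs.

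Between groups the order of the list was that of ENSCAFG00000029470, all M-MDSC values of both lying above all MONO values, but within groups it was so only in part. C MONO 5, 6 and 1 had the highest C MONO values of the gene (4.57%, 2.38% and 2.40%) and of the sum (2.16%, 1.98% and 1.23%), and C MONO 7 the lowest of both. Of the sum, ENSCAFG00000023324 alone made up 1.48% of H PMN counts against 4.78% for the whole list. By the median over the 50 genes in place of the sum, C MONO 4 was highest (1.12%), with C MONO 5 at 0.854%, 6 at 0.914% and 1 at 0.888%. In M-MDSC 1 to 5 that median was 2.47%, 3.23%, 2.20%, 1.918% and 4.20%. Among M-MDSCs the gene was highest in M-MDSC 1, where the sum was the lowest but 1. ENSCAFG00000017646 exceeded the list in every monocytic library and was highest among C MONOs in C MONO 1. The part of PMN transcripts carried into these libraries in the higher ENSCAFG00000029470 level of M-MDSCs was not tested. The list of 50 monocyte genes stood at 58.8% to 83.4% of its H MONO level in M-MDSCs and 87.8% to 119.7% in C MONOs.

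**Figure D3:**
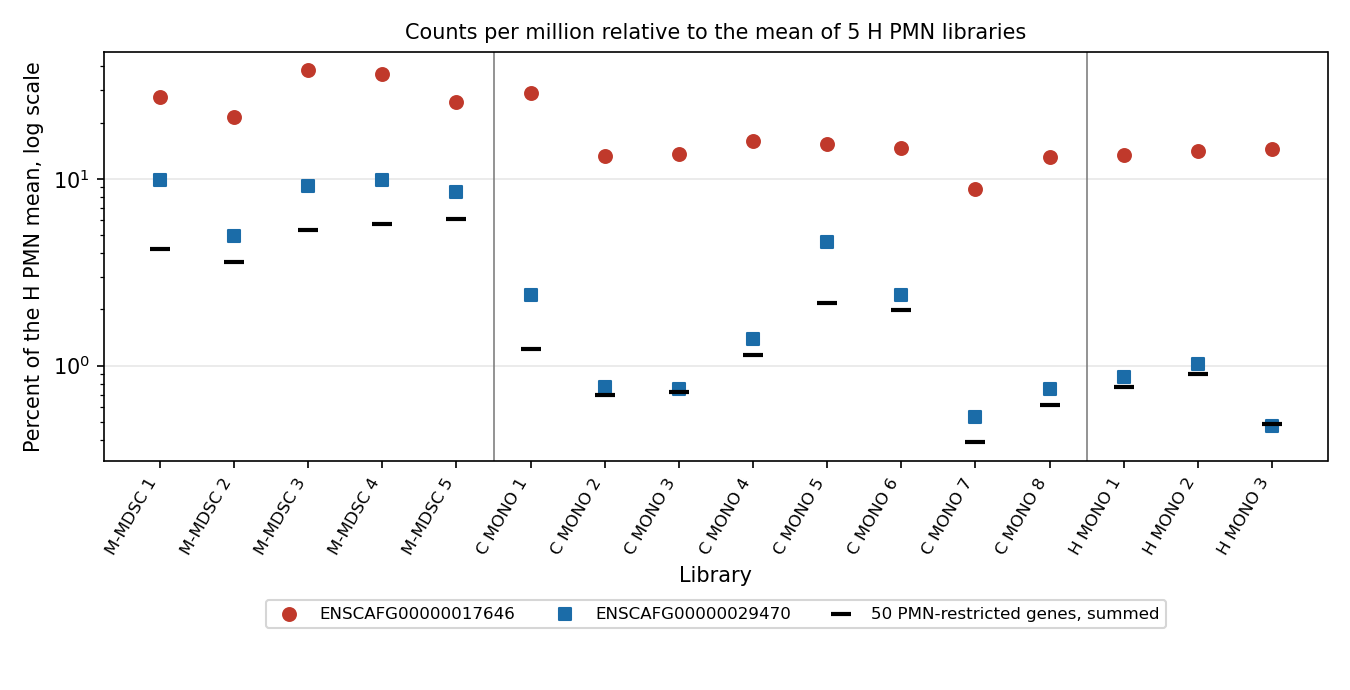
Level (% of the H PMN mean, log scale) of ENSCAFG00000017646 (circles), ENSCAFG00000029470 (squares) and the sum of 50 PMN-restricted genes (dashes) in each of 16 monocytic libraries. In C MONOs ENSCAFG00000029470 spans 0.534% to 4.57% and the list 0.389% to 2.16%, and in H MONOs the list is low by its choice, while ENSCAFG00000017646 lies above both in every library (8.88% to 38.2%).

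By median share of counts, ENSCAFG00000017646 fell in the order H PMN (2.32%), C PMN (2.04%), M-MDSC (0.634%), PMN-MDSC (0.508%), C MONO (0.326%) and H MONO (0.325%). Of these neighbours only C PMN and M-MDSC did not overlap. ENSCAFG00000029470 fell in the order PMN-MDSC (4.23%), C PMN (2.87%), H PMN (2.26%), M-MDSC (0.197%), C MONO (0.0233%) and H MONO (0.0187%), where H PMN did not overlap M-MDSC and M-MDSC did not overlap C MONO. M-MDSCs thus stood beside PMN-MDSCs for the former gene, and 21.5 times below them by the ratio of medians for the latter. The share of all genes that do not overlap between these populations was not counted.

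Genes with the most similar pattern were sought by Pearson's r of log2(CPM + 1), as a description, since libraries share their population and depth. Over all 40 libraries and 6365 genes, ENSCAFG00000016104 (r = 0.949) and ENSCAFG00000001522 (r = 0.916) were most like ENSCAFG00000017646, and ENSCAFG00000029470 stood at place 620 (r = 0.595). ENSCAFG00000017557 (r = 0.997) and ENSCAFG00000023324 (r = 0.996) were most like ENSCAFG00000029470. The former genes were less restricted to PMNs, with mean shares in H PMNs and H MONOs of 0.124% and 0.0651% for ENSCAFG00000016104, against 0.954% and 0.00785% for ENSCAFG00000017557.

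Within the 15 PMN libraries and 4948 genes, ENSCAFG00000029470 was most like ENSCAFG00000023324 (r = 0.983), followed by ENSCAFG00000017772 (r = 0.957). For ENSCAFG00000017646 the likest were ENSCAFG00000018558 (r = 0.734) and ENSCAFG00000002660 (r = 0.645), both of low abundance, with 0.00414% and 0.00224% of H PMN counts. The pair itself had r = −0.275 there, and r = −0.0692 over the 14 libraries of at least 10000000 counts. In those 14, ENSCAFG00000023324 (r = 0.962) and ENSCAFG00000017772 (r = 0.925) were again the likest to ENSCAFG00000029470, while ENSCAFG00000019013 (r = 0.738) replaced ENSCAFG00000002660 behind ENSCAFG00000018558 (r = 0.815).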

How the data were processed

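Read pairs of 75 bp from Smart-seq2 libraries went through skewer for trimming, HISAT2 for alignment (CanFam3.1 and spike-ins) and Picard 1.92 for marking of duplicates, all by the authors. Whether duplicates were removed is not given in the sources used here. The deposited counts were made by the authors with featureCounts (Subread 1.5.0) from reads mapped uniquely to exons of Ensembl genes, without normalization. The deposited CPM values are those counts scaled by the authors to the total of genes and 92 spike-ins, as checked by recomputing them. The deposited TPM values were made by the authors with gene lengths that are not given in the sources used here. Another deposited table that repeats the CPM values was not used, and 0 columns lacked a sample. Whether either gene has a near-identical copy or an overlapping gene was not examined, and the library protocol does not mark strand.

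Groups were taken from the labels. Shares are counts of a gene over all counts on genes. Counts were tested with edgeR 4.0.16 (quasi-likelihood, TMM, filterByExpr, FDR of at most 0.05 by Benjamini-Hochberg over all genes tested) on the libraries of the groups compared, with R 4.3.3, and alternatives used DESeq2 1.42.0 and limma voom (limma 3.58.1). The edgeR step was tested on simulated counts, of which no result is given here. The standard error is the absolute log2 fold change over the square root of F. Correlations used exact two-sided permutation of pairings, or 100000 resamples with 10 libraries, in Python 3.11.15 with scipy 1.17.1, numpy 2.4.6 and pandas 2.3.3, and plots used matplotlib 3.10.9. Counting intervals are exact 95% binomial (Clopper-Pearson) and cover counting error only, since reads are not independent molecules. Libraries held 4229857 to 60473238 counts on genes, and counting error was small beside the spread between libraries.

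Named were the pair, the 2 genes most like each (mean CPM of at least 10, pseudocount 1) and genes at rank 1 or 2 of a library. The PMN-restricted and monocyte-restricted lists hold the 50 genes of highest mean CPM in H PMNs or H MONOs among those with at least 50 CPM there, at least 50 times the mean of the other lineage and no overlap of libraries, without the pair. Markers of other cell types by symbol were not analysed here, since 0 IDs were matched to a symbol in the RefSeq gene table. The pair and the lists were chosen with earlier results of these data known. Alternatives were other size factors, filters, tests, libraries and scales, and each library left out.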

Additional observations from a re-analysis of the deposited data

Results flagged for a closer look

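In each group of 5 to 10 libraries, the highest and the lowest share of counts of each gene were compared with the nearest other library by Dixon's criterion at 95%. In 10 such comparisons 6 libraries stood apart. In H PMNs and C PMNs, whose values chose the pair, standing apart is a description and no test. Since the 6 libraries include C PMNs, their number is not set against chance. For ENSCAFG00000017646 these were C PMN 5 with 4.06% of counts and C MONO 1 with 0.663%, both above their groups. For ENSCAFG00000029470, C PMN 7 with 10.6% and PMN-MDSC 9 with 15.5% lay above their groups, and these are the 2 libraries under 10000000 counts, so that depth and the value cannot be told apart in them. C MONO 5 with 0.0988% also lay above its group for ENSCAFG00000029470. M-MDSC 2 with 0.107% lay below its group for the same gene.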

How the results depend on the processing

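Of the values recomputed under alternatives, apart from leaving out single libraries, 144 kept their direction and their side of the threshold or stayed within the spread, while 20 moved, 11 reversed, 4 newly passed the threshold and 3 no longer passed it. The cause was not tested except where named. ENSCAFG00000029470 in M-MDSCs against C MONOs had log2 fold changes of 2.32 to 2.72 and FDRs of 4.42e-05 to 0.430, and missed the threshold within GAR (2.61) and with all 40 libraries in 1 fit (2.33, FDR 0.371). Against H MONOs it missed it with all 40 libraries in 1 fit (3.45, FDR 0.611), with FDRs of 8.45e-21 to 0.611 over the alternatives. ENSCAFG00000017646 in M-MDSCs passed the threshold with DESeq2 against C MONOs (1.03, FDR 0.0105) and H MONOs (1.21, FDR 0.00174) and with the exact permutation test (0.99 and 1.06, unadjusted), and its highest FDRs were 0.860 and 0.920.

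For C PMNs against H PMNs, ENSCAFG00000017646 reversed with library size (−0.058) and in the difference of mean log2 CPM (−0.10). The difference between PMNs and MONOs reversed with library size (−0.20 for ENSCAFG00000017646 and −0.35 for ENSCAFG00000029470), within GAR (−0.079 and −0.027) and, for the latter, without libraries under 10000000 counts (−0.45). The correlation reversed on log2 CPM with TMM factors (0.85 in C PMNs and 0.48 in 7 PMN-MDSC libraries), within GAR (0.014 in C PMNs) and without libraries under 10000000 counts (0.032 in PMN-MDSCs). The share of TPM in place of counts lowered the mean of ENSCAFG00000017646 by more than the spread in 5 of 6 groups.

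Genes called in C PMNs against H PMNs went from 0 to 259 with DESeq2, 2 with limma voom, 94 within GAR, 9 with all libraries in 1 fit and 2 with the prefix as a term. In M-MDSCs against C MONOs they went from 90 to 508 with DESeq2, 0 within GAR and 29 with all libraries in 1 fit. In C MONOs against H MONOs DESeq2 called 58 in place of 0. In M-MDSCs against H MONOs they went from 28 to 44 without a filter, 60 with at least 10 counts in every library, 316 with DESeq2, 43 with limma voom, 0 with all libraries in 1 fit and 7 with the prefix as a term.

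With single libraries left out, the log2 fold changes of ENSCAFG00000017646 and ENSCAFG00000029470 ranged from 0.23 to 0.70 and 0.69 to 2.34 in C PMNs against H PMNs, from 0.86 to 1.23 and 2.23 to 2.76 in M-MDSCs against C MONOs, from −0.043 to 0.27 and 0.74 to 1.38 in C MONOs against H MONOs, from 1.02 to 1.33 and 3.22 to 3.74 in M-MDSCs against H MONOs, and from 0.023 to 0.56 and −0.45 to 1.22 for PMN minus MONO. Genes called were 1 without C PMN 4 or C PMN 9 and 0 otherwise in C PMNs against H PMNs, 6 without C MONO 3 and 0 otherwise in C MONOs against H MONOs, and 0 throughout for PMN minus MONO. In M-MDSCs against C MONOs they were 184 without M-MDSC 2, 34, 24 and 21 without M-MDSC 3, 4 and 5, and 56, 53, 41, 51 and 55 without C MONO 2, 4, 6, 7 and 8. In M-MDSCs against H MONOs they were 0, 1 and 0 without H MONO 1, 2 and 3 and 57, 44, 14 and 7 without M-MDSC 1, 2, 3 and 4. No paired analysis was possible because the labels give no replicate number or dog that groups share. The planned correlation over all 9 PMN-MDSC libraries was not run, as libraries 3 and 8 lie apart, and the values without them, like the orders and likeness without low-depth libraries, were chosen after seeing the data. Leaving out low-depth libraries changes nothing where a comparison holds none. Depth limits what C PMN 7 and PMN-MDSC 9 can show for genes of low abundance.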
